A study of Mus musculus with 6 samples.

Results

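U6 is the small nuclear RNA at the catalytic centre of the spliceosome. It pairs first with U4, is released, and then pairs with U2 and with the 5' splice site of the intron, which it contacts through a short box of the letters ACAGAGA. U6 is made by RNA polymerase III from a promoter that lies upstream of the gene, its transcript ends in a run of U, and the mouse genome carries many near-identical copies of it, most of them thought to be pseudogenes. The data described here are the rows of a small RNA count table that have the size of U6: all transcripts that GENCODE mouse release M21 types as snRNA with a length of at least 100 and under 112 bases. By this rule 336 rows were found among 5880 in the table and among 485 snRNA rows. No measured value entered the rule.

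The libraries were made from RNA of exosomes, the small vesicles that cells release into their medium. P19 is a mouse embryonal carcinoma line of pluripotent cells. Vesicles of the undifferentiated line (UD-P19, replicates 1, 2 and 3) were compared with those of neurons derived from it (P19N, replicates 4, 5 and 6), which were obtained by 4 days of retinoic acid and kept as neuronal cultures for 8, 10 and 12 days, 1 library at each age. UD-P19 exosomes came from medium with N2 supplement and P19N exosomes from neurobasal medium with B27 and N2 supplements. To stop proliferation, P19N cultures alone received 5-fluorouridine and uridine on day 3, and again on day 8 after that day's medium was taken. Medium, this treatment and cell state cannot be told apart. The 6 libraries held 454499 to 887460 counts. In vesicle RNA, a change in a row's counts does not separate fewer vesicles that carry an RNA from less of it per vesicle.

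One sequence is shown, as DNA letters of the transcript from GENCODE M21 (build GRCm38), because it is that of a row of U6 size without U6 sequence. It is Gm24890, at chr14:70428496-70428597 on the minus strand, and the capitals mark the longest run shared with Rnu11, the U11 snRNA of the minor spliceosome.
Gm24890: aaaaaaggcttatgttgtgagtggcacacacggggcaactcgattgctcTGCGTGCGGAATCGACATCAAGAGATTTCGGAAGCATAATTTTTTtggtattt

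The rows were nearly all U6 by sequence, with a few exceptions. They were compared with Rnu6, an annotated U6 gene on chromosome 17, whose sequence the largest number of rows shared. Of the 336, 276 were 107 bases long, the length of Rnu6, and 43 had the Rnu6 sequence letter for letter. By global alignment to Rnu6 another 139 were 95 to under 100% identical, 130 were 85 to under 95% identical and 24 were under 85%. The box ACAGAGA, searched on the transcript strand, stood in 308 rows (91.7%), against 1 of the 139 other rows of the table in the same range of length (0.719%). A terminal TTTT, the DNA letters of the terminator of RNA polymerase III, closed 255 rows (75.9%) and again 1 of those 139. The 3 rows least like Rnu6 lacked the box. Gm25280 (42.7% identity) shared runs of 25 bases with Rnu1a1, a U1 gene, Gm24890 (50.4%) shared 45 bases with Rnu11, and Gm23672 (50.4%) shared no run of 25 bases with Rnu6 or with a named snRNA. For these 3 the sequence goes against a reading as U6, and the whole set is therefore called U6-sized. In all, 16 rows shared no run of 25 bases with Rnu6, and only 2 of the 16 shared one with another named snRNA.

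The U6-sized rows were spread over 20 chromosomes. In GENCODE M21, 197 lay outside any other gene, 75 in an intron on the opposite strand, 60 in an intron on the same strand and 4 over an exon of the same strand. At the ends of the length limits stood Gm23044 and Gm25792 (100 bases, 24 and 0 counts in all) and, at the long end, Gm24144 (1 count). Just outside were Gm23463 (99 bases) and Gm26203 (114 bases), both with a count of 0 in all 6 libraries. A further 13 snRNA rows of other lengths held a run of 25 bases of Rnu6. They had 156 counts together, 109 of them at Gm25781, a row of 84 bases.

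U6-sized rows drew few of the counts. Over the 6 libraries they held 7022, of which 752 (10.7%) were unique counts, read here as reads that matched 1 row only, and 6083 (86.6%) exact counts, read as reads without a mismatch. Of the counts at all rows, 51.4% were unique and 57.8% exact. At least 1 count was seen at 273 rows and at least 1 unique count at 77. The 63 rows at 0 in every library are not shown to be silent, since a count of 0 allows up to 3 counts, or 3.53 to 7.37 CPM (counts per 1000000 after TMM scaling) in a library. Counts were concentrated at the rows most like Rnu6. The 43 identical rows held 35.1% of them with a median of 58 counts a row, the rows of 95 to under 100% identity 48.1% with a median of 7, those of 85 to under 95% identity 14.9% with a median of 1, and those under 85% 1.81%. Across the 336 rows, which share reads, Spearman's rho between identity and total counts was 0.64, given as a description only.

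**Figure D1:**
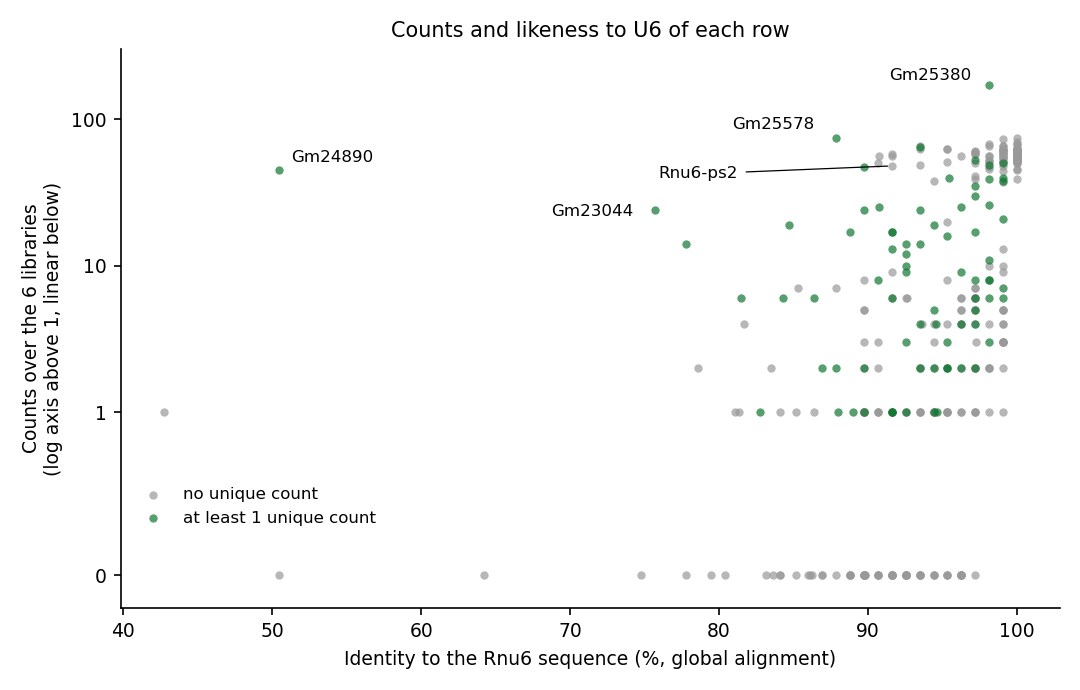
Each point is 1 of the 336 U6-sized rows, with its identity to Rnu6 in percent on the x axis and its counts over the 6 libraries on the y axis (logarithmic above 1). Rows without a unique count are grey and the 77 rows with at least 1 are green. The 43 rows at 100% identity sit between 39 and 74 counts with no unique count, while Gm25380 stands highest at 172 and Gm24890 apart at 50.4% identity.

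As a share of all counts, U6-sized rows were more abundant in P19N than in UD-P19 exosomes on average, with overlap between the groups. In UD-P19 replicate 1 they took 0.0535% of the counts (243 counts, 95% Wilson interval 0.0472 to 0.0606%). The share was 0.174% in UD-P19 replicate 2 (1228 counts, 0.165 to 0.184%) and 0.0472% in UD-P19 replicate 3 (360 counts, 0.0426 to 0.0523%). UD-P19 replicate 2 thus stood more than its counting error above the other 2 libraries of its group. In P19N exosomes the share was 0.281% at 8 days (2493 counts, 0.270 to 0.292%). It was 0.256% at 10 days (1944 counts, 0.245 to 0.267%) and 0.128% at 12 days (754 counts, 0.119 to 0.138%). The 12-day library lay below UD-P19 replicate 2 and above the other 2 UD-P19 libraries, and with 1 library an age, age and library cannot be told apart. Group means were 0.0916% ± 0.0716 (SD, n = 3) in UD-P19 and 0.222% ± 0.0819 (SD, n = 3) in P19N, a difference of 0.130 percentage points that is larger than either SD. Without UD-P19 replicate 2 the UD-P19 mean was 0.0503%, which moved the ratio of P19N to UD-P19 from 2.42 to 4.40. No test was made of this share, because it is a sum over the chosen rows. The intervals cover counting error only.

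The direction depended on what the counts were divided by. Against snRNA counts alone the share fell, with 0.724, 2.87 and 0.992% in UD-P19 replicates 1, 2 and 3 and 0.533, 0.505 and 0.266% in P19N at 8, 10 and 12 days. Here the groups did not overlap, and their means were 1.53% ± 1.17 (SD, n = 3) and 0.434% ± 0.147 (SD, n = 3). The UD-P19 mean was 0.858% without replicate 2, which moved the ratio of P19N to UD-P19 from 0.284 to 0.506. By unique counts the share of snRNA counts ran the other way, with means of 0.412% in UD-P19 and 0.648% in P19N. That difference of 0.237 points was smaller than the pooled SD of the libraries, 0.28. All snRNA rows together rose from 6.07% ± 1.31 (SD, n = 3) to 50.5% ± 2.26 (SD, n = 3) of the counts. When the counts of Gm42418, 1 row with 16.3 to 65.9% of each library, were left out of the total, UD-P19 replicate 2 had the highest share of all (0.342%) and the group means were 0.205 and 0.266%. That UD-P19 mean was 0.136% without replicate 2, and the ratio of P19N to UD-P19 went from 1.30 to 1.96. Of the unique counts, U6-sized rows took 0.00770, 0.0270 and 0.00690% in UD-P19 replicates 1, 2 and 3, and 0.0888, 0.0889 and 0.0389% in P19N at 8, 10 and 12 days. By unique counts every P19N library was above every UD-P19 library, but the interval of the lowest P19N library (0.0315 to 0.0479%) met that of UD-P19 replicate 2 (0.0225 to 0.0323%).

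**Figure D2:**
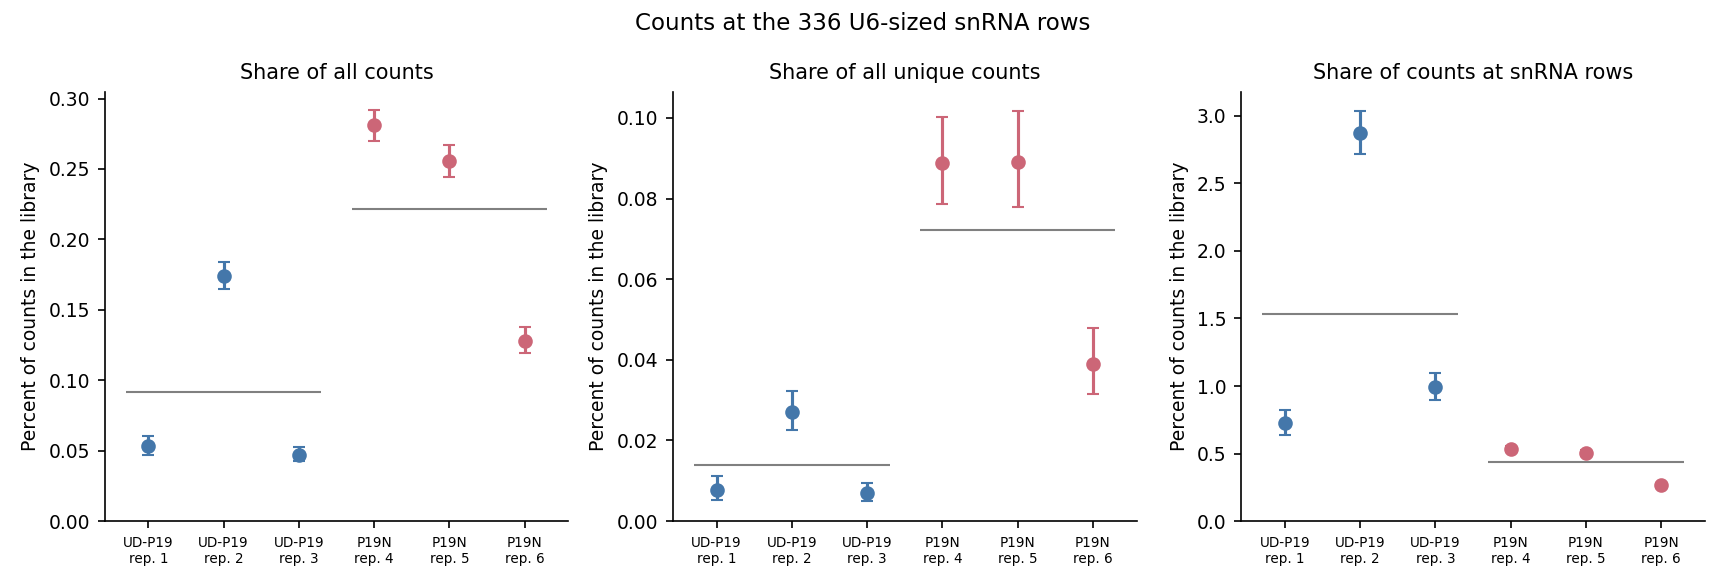
Each panel gives, for the 6 libraries, the percent of counts at the 336 U6-sized rows (y axis) out of all counts, out of all unique counts and out of the counts at snRNA rows. Points are libraries, bars are 95% Wilson intervals and grey lines are group means. P19N lies higher in mean in the first 2 panels and lower in the third, and UD-P19 replicate 2 (0.174% of all counts, 2.87% of snRNA counts) stands above the other UD-P19 libraries in each.

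The 43 rows with the sequence of Rnu6 served as a measure of how far counts of a single copy can be read. They held 2466 counts and 0 unique counts. In UD-P19 replicate 1 the 43 rows had a mean of 1.79 counts (range 0 to 5), in replicate 2 9.74 (4 to 18) and in replicate 3 2.74 (0 to 6). In P19N at 8 days the mean was 21.3 (12 to 27), at 10 days 15.9 (10 to 23) and at 12 days 5.84 (1 to 12). Rows that no read can tell apart thus differed by more than 2-fold within a library. The variance among them was 0.497 to 0.991 times their mean. Rnu6 itself had 2, 13 and 3 counts in UD-P19 and 21, 19 and 1 in P19N, and its 12-day count of 1 was the lowest of the 43 copies. Differences of this size between single rows were therefore within the spread of identical copies.

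**Figure D3:**
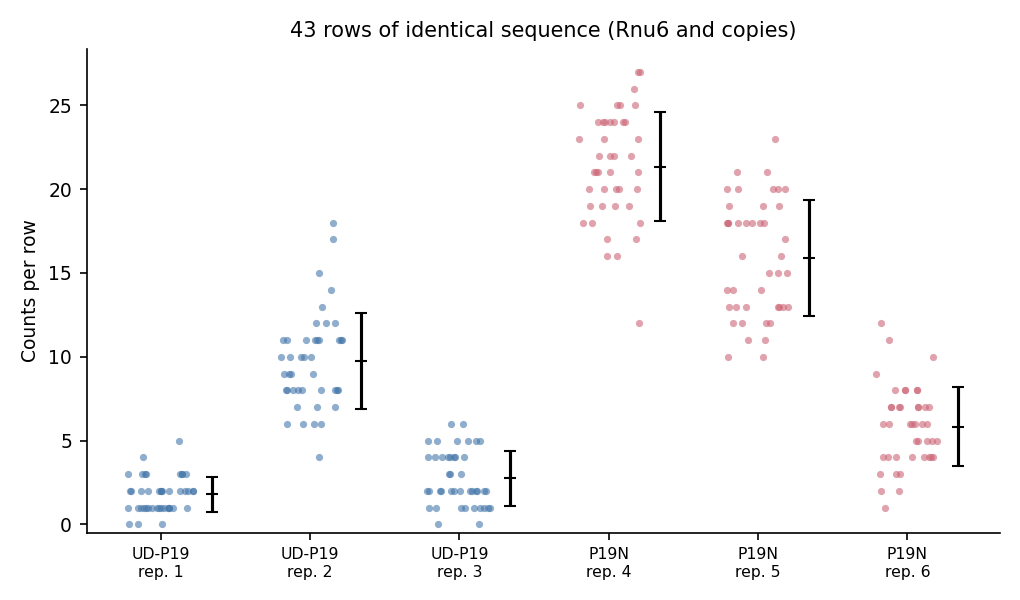
Each point is the count (y axis) of 1 of the 43 rows with the Rnu6 sequence in 1 of the 6 libraries (x axis), with the mean and SD over the 43 rows as black bars. The rows share all their bases and spread from 12 to 27 counts in P19N replicate 4 and from 4 to 18 in UD-P19 replicate 2.

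As 1 RNA, the sum of the 43 copies was 189, 496 and 195 CPM in UD-P19 replicates 1, 2 and 3 and 1081, 903 and 350 CPM in P19N at 8, 10 and 12 days. UD-P19 replicate 2 exceeded the 12-day P19N library, and the groups overlapped. With members of identical sequence summed before the fit, the copies had a log2 fold change of 1.21 (SE 0.50, unadjusted p = 0.0283, adjusted p = 0.0826, edgeR's quasi-likelihood test with Benjamini-Hochberg adjustment), which did not pass the threshold of 0.05. Fitted as single rows, the 43 copies had log2 fold changes of 0.69 to 2.10 and adjusted p-values of 0.0558 to 0.551. None was called, although 15 had an unadjusted p under 0.05 (21.3% of all rows tested were higher at that limit), and edgeR's exact test called 3 and DESeq2 0. Of all rows tested, the exact test called 16.4% higher and DESeq2's test 14.0%. Without UD-P19 replicate 2, 26 of the 43 were called higher, against 25.7% of all rows tested.

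Across single rows the question was which U6-sized rows differed between UD-P19 and P19N exosomes. Of the 336, 124 had a total of at least 15 counts and were tested with edgeR's quasi-likelihood test among 1286 rows, and 212 were not tested. After Benjamini-Hochberg adjustment 5 of the 124 (4.03%) were higher in P19N, against 15% of all rows tested, and 1 (0.806%) was lower, against 9.02%. Both shares are below the background. At an unadjusted p under 0.05, 37 were higher and 1 lower, against 21.3 and 17.1% of all rows tested. The fitted log2 fold change was above 0 at 120 of the 124 and at 700 of all 1286 rows, with medians of 1.33 and 0.21. The median was 1.34 at the identical copies, 1.26 at 95 to under 100% identity, 1.40 at 85 to under 95% and 1.98 at the 3 tested rows under 85%. CPM did not overlap between the groups, with P19N above, at 33 of the 124 (26.6%), near the 25.2% of all rows. P19N lay wholly below UD-P19 at 1, Rnu6-ps2, where the background was 16.8%. With total counts in place of TMM scaling these numbers were 35 and 0 of the 124, against 27.3 and 14% of all rows. Rows that share reads are not independent of each other.

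Of the alternatives, leaving out UD-P19 replicate 2 moved the number of called rows the most. UD-P19 replicate 2 had the highest CPM of its group at 103 of the 124 rows and a higher CPM than the 12-day P19N library at 85. Without it, 61 of the 124 (49.2%) were called higher, against 25.7% of all rows, and none was lower, also at an unadjusted p under 0.05. The median log2 fold change was then 2.01 for the U6-sized rows and 0.54 for all rows. Leaving out any other library left 2 called higher, against 9.41 to 12.5% of all rows tested.

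The largest changes were at Gm25578 and Gm23044, both of which also held unique counts. Gm25578, 104 bases on chromosome 1 with no other gene over it, has a 5' end unlike that of Rnu6 and is 87.9% identical to it overall. It had 1, 0 and 0 counts in UD-P19 replicates 1, 2 and 3 and 33, 28 and 13 in P19N at 8, 10 and 12 days. Of these, 0, 0 and 0 and then 25, 20 and 11 were unique. The groups did not overlap, and the row was nearly absent from UD-P19 exosomes. The log2 fold change was 5.41 (SE 0.96) with an adjusted p of 0.000757 in edgeR's quasi-likelihood test. Since UD-P19 held 1 count in all, the ratio of the pooled counts (74 to 1), each divided by the TMM-scaled total of its group, was 59.1 with a 95% counting interval of 10.3 to 2367. It was called in all 17 alternative fits. The row passed the limit of 15 counts only through P19N, the group where it was high, and had to differ in order to be tested.

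Gm23044, 100 bases on chromosome 10, lies in an intron of Utrn (utrophin, a relative of dystrophin) and is read in the same direction. Its first 54 bases are those of Rnu6, it departs from Rnu6 after them, and it is 75.7% identical overall. It had 0 counts in each UD-P19 library and 6, 11 and 7 in P19N at 8, 10 and 12 days, of which 5, 11 and 7 were unique. Every P19N library was above every UD-P19 library. Against 3 counts over the UD-P19 group, with counts pooled in the same way, it was at least 6.39-fold higher in P19N (edgeR's quasi-likelihood test, adjusted p = 0.00678). It was called in all 16 alternative fits that tested it, and it too entered the test through its P19N counts alone.

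The other 3 rows called higher had no unique count, and they too passed the limit of 15 counts only through P19N. Gm23092 (chromosome 5, 99.1% identity) had 1, 5 and 4 counts in UD-P19 and 25, 17 and 10 in P19N, a log2 fold change of 2.04 (SE 0.65, adjusted p = 0.0315, edgeR's quasi-likelihood test). It has a twin of identical sequence, and summed with it the log2 fold change was 1.05 (adjusted p = 0.168). Gm22886 (chromosome 18, 96.3% identity) had 0, 7 and 0 counts in UD-P19 and 21, 20 and 8 in P19N (log2 fold change 2.55, SE 0.88, adjusted p = 0.0457). Gm23610 (chromosome 18, in an intron of Lvrn, 98.1% identity) had 1, 9 and 1 counts in UD-P19 and 22, 24 and 9 in P19N (log2 fold change 2.07, SE 0.72, adjusted p = 0.0478). In these 3 the groups did not overlap, by a narrow margin for the last pair, where UD-P19 replicate 2 (8.29 and 10.7 CPM) came close to the 12-day library (11.2 and 12.6 CPM). Without UD-P19 replicate 2 the log2 fold change of Gm22886 was 6.81 and that of Gm23610 3.45, whereas without UD-P19 replicate 3 they were 1.75 (adjusted p = 0.171) and 1.40 (adjusted p = 0.206), so that both values rest on few counts in UD-P19. The 3 rows were called in 5, 4 and 3 of the 16, 15 and 16 alternative fits that tested them.

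**Figure D4:**
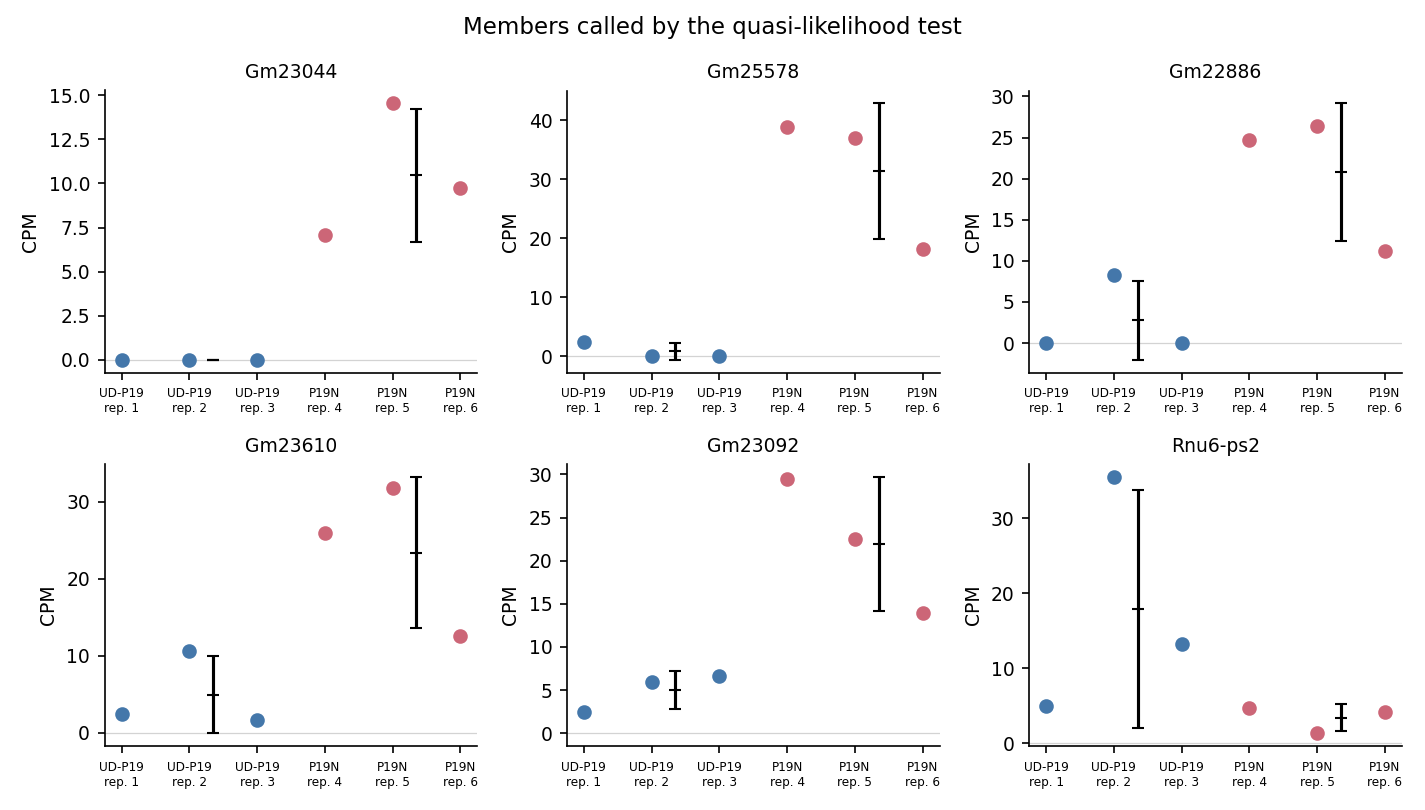
CPM (y axis, each panel with its own scale) of the 6 called rows in the 6 libraries (x axis, UD-P19 in blue, P19N in red), with group mean and SD (n = 3) as black bars. Gm23044 and Gm25578 are at or near 0 in UD-P19. Rnu6-ps2 is the 1 row lower in P19N, and its UD-P19 mean of 17.9 CPM rests on replicate 2 (35.5 CPM).

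Rnu6-ps2, an annotated U6 pseudogene on chromosome 4, was the 1 row called lower. It had 2, 30 and 8 counts in UD-P19 replicates 1, 2 and 3 and 4, 1 and 3 in P19N at 8, 10 and 12 days. Of its 48 counts 30 were in UD-P19 replicate 2, and it passed the limit of 15 counts only through UD-P19, where it was high. UD-P19 replicate 1 (4.91 CPM) was just above the highest P19N library (4.71 CPM) with TMM scaling, an order that total counts did not keep. Per 1000000 total counts UD-P19 replicate 1 (4.40) was below P19N at 8 and 12 days (4.51 and 5.10), and the groups overlapped. The log2 fold change was -2.40 (SE 0.80, adjusted p = 0.0378, edgeR's quasi-likelihood test). Without UD-P19 replicate 2 it was -1.44 (adjusted p = 0.148), and the call was lost. The call was lost as well without P19N replicate 4 (-2.69, adjusted p = 0.0974) or P19N replicate 5 (-2.02, adjusted p = 0.159), where the fold change stayed nearer to that of all 6 libraries.

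Rnu6-ps2 had 45 exact counts and 0 unique ones. It differs from Rnu6 by 9 substitutions. Gm25380 (chromosome 14, over an intron of Otx2os1 on the opposite strand) differs from Rnu6 by 2. The pair have 1 of these substitutions in common and share a run of 42 bases, the last 25 of which were found in no other row of the table with a sequence. Gm25380 was the U6-sized row with the most counts. It had 6, 66 and 12 counts in UD-P19 and 45, 34 and 9 in P19N, of which 4, 33 and 5 and then 39, 30 and 8 were unique. Its counts that were not unique were therefore 2, 33 and 7 in UD-P19 and 6, 4 and 1 in P19N, beside 2, 30 and 8 and then 4, 1 and 3 at Rnu6-ps2. Both series were highest in UD-P19 replicate 2 and low in P19N. Whether the same reads were divided between the pair was not tested, since the files hold no reads.

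**Figure D5:**
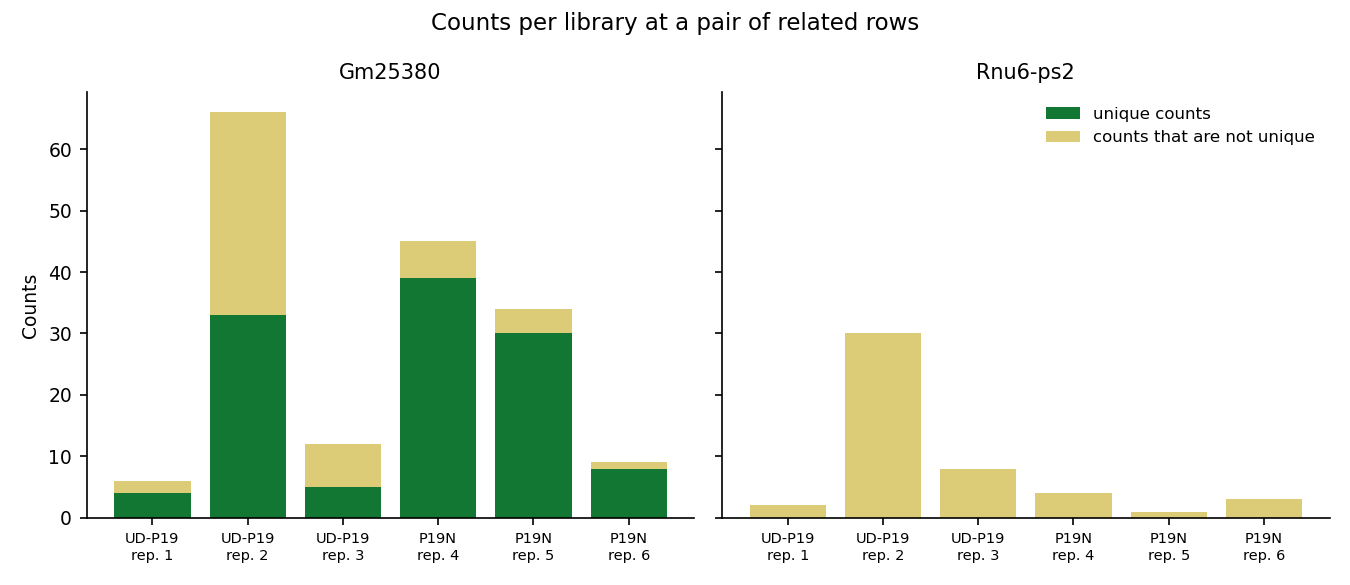
Counts (y axis) at Gm25380 and Rnu6-ps2 in the 6 libraries (x axis), with unique counts in green and the others stacked on them in yellow. The yellow part is 33 and 30 counts in UD-P19 replicate 2 and 1 to 6 counts at either row in each P19N library, and Rnu6-ps2 has no green part.

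Gm25380 as a whole did not pass the test. Its level was 37.6 CPM ± 35.3 (SD, n = 3) in UD-P19 and 36.8 CPM ± 21.4 (SD, n = 3) in P19N, with a log2 fold change of -0.07 (SE 0.66, adjusted p = 0.949, edgeR's quasi-likelihood test). By unique counts alone it was 0.59 (SE 0.77, adjusted p = 0.614). Without UD-P19 replicate 2 the log2 fold change over all counts was 1.07 (SE 0.58, adjusted p = 0.137), with its sign turned. The level of Gm25380 in UD-P19 replicate 2 (78.2 CPM) was above that in any P19N library, the highest of which was 53.0 CPM.

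Unique counts allowed a further view, since they are not divided among copies. At least 15 of them were seen at 18 U6-sized rows, which were tested among 510 rows. Of the 18, 2 (11.1%) were called higher in P19N, against 14.3% of all rows tested, and they were Gm25578 (adjusted p = 0.00165) and Gm23044 (adjusted p = 0.0130) in edgeR's quasi-likelihood test on unique counts, both at 0 unique counts in UD-P19 and tested through P19N alone. None was called lower, and at an unadjusted p under 0.05 there were 4 higher and 0 lower, against 20.8 and 18.6% of all rows tested. The fitted change was above 0 at 17 of the 18, with a median of 1.36 against -0.05 for all 510 rows. Gm25380, Gm25578 and Gm24890 had the most unique counts, 119, 56 and 43, and together 29.0% of those at U6-sized rows. Gm24890, the U11-like row in an intron of Piwil2, had 4, 1 and 6 unique counts in UD-P19 and 13, 16 and 3 in P19N, with overlap (log2 fold change 1.23, SE 0.80, adjusted p = 0.275). Only 24 of its 45 counts were exact.

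The rows with the highest counts after Gm25380 and Gm25578 were all near-copies without a unique count. Gm22823 (74 counts), Gm22822 (70), Gm24803 (68) and Gm22288 (67) have the sequence of Rnu6. Gm26243 (73), Gm24584 (68), Gm22363, Gm22969, Gm24535 and Gm23610 (66 each) are 93.5 to 99.1% identical to it. Of these 10 rows Gm23610 was called higher, with the values given above. Gm22969 had 2, 11 and 1 counts in UD-P19 and 20, 28 and 4 in P19N, the highest log2 fold change of the other 9 (1.64, SE 0.78, adjusted p = 0.134 in edgeR's quasi-likelihood test). Gm22363 had the lowest of them (0.59, SE 0.69, adjusted p = 0.554), from 2, 18 and 4 and then 24, 13 and 5 counts. None of these 9 was called, and in all 9 the CPM of UD-P19 replicate 2 was above that of P19N replicate 6. When UD-P19 replicate 2 was left out, Gm22823 (2.12, adjusted p = 0.0278), Gm22969 (2.80, adjusted p = 0.0177) and Gm24535 (1.85, adjusted p = 0.0455) were called higher and the other 6 were not. In that fit 25.7% of all rows tested were called higher.

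Other small nuclear RNAs were read from a list of 20 rows named Rnu that are not U6-sized, 9 typed as snRNA and 11 as snoRNA (10 of U3, a nucleolar RNA, and Rnu73b). The list is thus not one of partners of U6 only, and it holds no row named for U4. Of these 20 rows 6 were called higher in P19N and 0 lower, with a median log2 fold change of 0.30, where the background over all rows tested was 15% higher and 9.02% lower with a median of 0.21. The 6 are all typed as snRNA and were 4 rows of U1, which recognises the 5' splice site before U6 does (log2 fold changes of 3.73 to 3.84), Rnu2-10 (U2, the partner of U6 in the active spliceosome, 2.25, SE 0.45, adjusted p = 0.00188) and Rnu12 (U12, the counterpart of U2 in the minor spliceosome, 1.24, SE 0.38, adjusted p = 0.0257), by edgeR's quasi-likelihood test. Not called were Rnu5g (U5, -0.02 on the log2 scale, adjusted p = 0.968), Rnu11 (0.57, adjusted p = 0.347) and Rnu7, the histone snRNA (0.33, adjusted p = 0.518). Without UD-P19 replicate 2 there were again 6 higher, and 1 lower, Rnu73b (-0.92, adjusted p = 0.0297), beside 25.7% higher and 15.6% lower over all rows. The 10 rows of U3 were not called. As at U6, 1 read can match several of the U1 rows. Per length, the U6-sized rows summed over a 107-base RNA stood at 825 ± 463 CPM per 100 bases (SD, n = 3) in UD-P19 and 2044 ± 934 in P19N. On the same scale Rnu12 stood at 921 ± 377 and 2171 ± 454, Rnu11 at 938 ± 654 and 1390 ± 280, and Rn7sk, the 7SK RNA, lower at 142 ± 13.3 and 250.2 ± 103. The U6-sized value is a sum over rows, and the others are single rows. Whether counts scale with length in these libraries was not tested, so these values do not rank the RNAs by abundance.

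Box C/D RNAs guide methyl groups onto U6. Of 6 on the list 3 were matched, and 0 were called, nor was any at an unadjusted p under 0.05. With a background of 15% higher and 9.02% lower, a count of 0 among 3 rows says little. Snord67 had 4, 27 and 5 counts in UD-P19 and 46, 43 and 13 in P19N (log2 fold change 1.30, SE 0.64, adjusted p = 0.143 in edgeR's quasi-likelihood test), with UD-P19 replicate 2 again above the 12-day library. Without UD-P19 replicate 2, when 25.7% of all rows were called higher, it was called too (2.25, adjusted p = 0.00618). Snord8 had 20, 16 and 20 and then 24, 20 and 30 counts, and Snord7 0, 5 and 5 and then 9, 4 and 1.

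Of other genes that RNA polymerase III reads from an upstream promoter, 5 of 6 were matched, as 6 rows, and 3 rows were called higher and 0 lower, beside the same background of 15% and 9.02%. Rny3, a Y RNA of the Ro particle, had a log2 fold change of 1.93 (SE 0.34, adjusted p = 0.000674). The longer row of Rmrp, the RNA of RNase MRP, had 1.75 (SE 0.32, adjusted p = 0.000992) and Rny1 1.74 (SE 0.30, adjusted p = 0.000690), each by edgeR's quasi-likelihood test. Rn7sk, the RNA that holds P-TEFb inactive, had 189, 437 and 260 counts in UD-P19 and 948, 691 and 325 in P19N (0.81, SE 0.41, adjusted p = 0.150). Rpph1, the RNA of RNase P, had 1.14 (SE 0.51, adjusted p = 0.110). Without UD-P19 replicate 2, 5 of the 6 rows were called higher, beside 25.7% of all rows, Rn7sk among them (0.89, adjusted p = 0.0465). At 8, 10 and 12 days the U6-sized rows summed to 2937, 2571 and 1052 CPM, lowest at 12 days. Rn7sk (1117, 914 and 453 CPM) and Rpph1 (1100, 995 and 646 CPM) were lowest at 12 days too. Not lowest at 12 days were Rny3 (4641, 5311 and 6216 CPM) and Rny1 (14579, 16924 and 16395 CPM). The same held for the longer row of Rmrp (18840, 16559 and 18358 CPM) and its shorter row (267, 238 and 276 CPM).

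Markers of the cells of origin were checked beside these results. Of 11 neuronal symbols 9 were matched in 52 rows, 12 of them at 0, and their summed level was 22.1 to 201 CPM in UD-P19 and 87.9 to 136 CPM in P19N, with UD-P19 replicate 2 the highest of the 6 libraries. Of these rows 8 were tested and 0 called, also at an unadjusted p under 0.05, with a median log2 fold change of -0.10, where 15% of all rows were called higher and 9.02% lower (21.3 and 17.1% at the unadjusted limit). The row of Meg3 with the most counts was called higher without UD-P19 replicate 2 (2.61, adjusted p = 0.00300), as were 25.7% of all rows. The hairpins Mir9-1, Mir9-2 and Mir9-3 were at 0 in the UD-P19 libraries and had 3, 2 and 2 counts in P19N. Of 11 pluripotency hairpins 4 were matched, at 0 to 15.4 CPM in UD-P19, again highest in replicate 2, and 0 to 2.79 CPM in P19N. None of the 3 glial hairpins was matched. UD-P19 replicate 2 thus stood apart in these lists as it did at the U6-sized rows, and their part in the results was not tested.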

How the data were processed

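Small RNA of 3 UD-P19 and 3 P19N exosome preparations was sequenced. Per the paper's methods and the labels, the authors merged read pairs, matched them to the mouse ncRNA set of GRCm38 (CLC Genomics Workbench), and whole-number counts per transcript were deposited, with unique and exact counts in columns of their own. These columns are not defined in the sources used here, nor is how a read matching several rows was assigned. Deposited columns of the authors' comparison (fold changes, p-values) and group means were not used.

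Of 5880 rows, 5777 were matched by identifier to GENCODE M21 and 5773 had a sequence. Counts of all rows with a total of at least 15 were tested with edgeR 4.0.16 (quasi-likelihood F test, TMM, Benjamini-Hochberg over all rows tested, R 4.3.3), with calls at an adjusted p up to 0.05. SE is the absolute log2 fold change over the square root of F. Identity came from global alignment in Biopython 1.88 (match 1, mismatch -1, gap -2 to open and -1 to extend). Named rows were every called row, the 10 with the highest counts (12 with ties), the 3 with the most unique counts, the rows not named Gm, and those at the length limits. The fit was tested on simulated data with rows drawn independently, which does not cover rows that share reads. The rows and lists were chosen with earlier results of these data known. The preparations are described as independent, but medium of P19N flasks was taken on day 8 and again at intervals after it, so the libraries of the 3 ages may share flasks and p-values measure only the spread between these samples. Alternatives, DESeq2 1.42.0 among them, are given in the closing section. The sequences of the U6 rows are not reported here.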

Additional observations from a re-analysis of the deposited data

How the results depend on the processing

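The number of U6-sized rows called higher in P19N (5) was 3 with no count filter, with DESeq2 size factors and with total counts only. It was 2 with TMM computed without snRNA rows, with DESeq2's test, with unique counts, with exact counts, with identical rows summed, and at an adjusted p of at most 0.01. It was 13 with edgeR's exact test. Leaving out 1 library gave 2 to 61, the 61 without UD-P19 replicate 2. Of all rows tested, the share called higher was lowest with no count filter (3.53%) and highest without UD-P19 replicate 2 (25.7%), and it was 16.4% with the exact test. The number called lower (1, Rnu6-ps2) was 0 with filterByExpr and unique counts, where Rnu6-ps2 was not tested, with total counts only (its log2 fold change -2.39) and TMM without snRNA rows (-2.50), at an adjusted p of at most 0.01, and 0 to 1 on leaving out 1 library. The share of all counts, 0.130 percentage points higher in P19N, was -1.10 points (lower) when divided by snRNA counts. The difference of 0.0583 points in the share of unique counts was 0.237 points when divided by unique snRNA counts, still higher in P19N. Its range on leaving out 1 library was 0.04996 to 0.0750, and that of the share of all counts was 0.1002 to 0.177. The log2 fold change of Gm25380 (-0.07) changed sign with filterByExpr (0.10), unique counts (0.59) and without UD-P19 replicate 2 (1.07), and on leaving out 1 library it ranged from -0.67 to 1.07. That of Gm24584 (0.66) was -0.12 without P19N replicate 4 and ranged up to 1.06. None of these was called. The cause of these changes was not tested, beyond the smaller number of libraries or rows that a setting leaves. The median log2 fold change of all rows (0.21) was 0.05 with DESeq2 size factors and 0.54 without UD-P19 replicate 2. It was below 0 when P19N replicate 6 was left out (-0.08), with identical rows summed (-0.02) and with unique counts (-0.05). That of the U6-sized rows (1.33) was lowest, at 0.86, when UD-P19 replicate 3 was left out, and highest, at 2.01, when UD-P19 replicate 2 was. Most U6-sized rows had too few counts for a test, and single copies share reads.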
